A study of Mus musculus with 12 samples.

Results

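The Tcl1 cluster of the mouse is a run of 6 genes, Tcl1 and Tcl1b1 to Tcl1b5, chosen here by gene symbol from a table of 24918 gene entries. All 6 were found and all 6 passed the filter on low counts. The table comes from 2-cell embryos of NSA(CF-1) females and B6SJLF1/J males, taken as pronuclear embryos between 16 and 20 h after chorionic gonadotropin and harvested at 46 h. They were cultured at 5% oxygen in KSOM medium with 50 µM IWR1-endo, an inhibitor of tankyrase (called IWR1 below), or with its solvent DMSO alone. Each of the 4 RNA-seq libraries of a group pooled 10 whole embryos of a separate collection, and each of the 2 ATAC-seq libraries of a group, which map open chromatin, pooled 100. RNA-seq libraries 1 to 4 are DMSO and libraries 5 to 8 are IWR1, as numbered in the table.

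TCL1 proteins are small beta-barrel proteins that bind AKT, a kinase downstream of phosphoinositide 3-kinase (PI3K), and promote its activity. In mice the family is abundant in the oocyte, and its transcripts are passed to the embryo with the egg, while in lymphoid cells activation of TCL1 can drive leukaemia. Many egg transcripts are degraded as the embryo passes through the 2-cell stage and its own genome becomes active. The comparison of IWR1 with DMSO asks which transcripts differ when tankyrase is inhibited over that passage.

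The cluster lies on chromosome 12 of mm10, from 105147019 to 105222737, and spans 75.7 kb. Gene positions and the sequences below are RefSeq's, on GRCm38.p6, which is the mm10 build. In order of position the genes are Tcl1b2 (gene ID 27381, 105147019 to 105155225), Tcl1b1 (27379, 105159704 to 105166625), Tcl1b5 (27382, 105176344 to 105181145), Tcl1b3 (27378, 105191045 to 105195399), Tcl1b4 (27380, 105202395 to 105206993) and Tcl1 (21432, 105216753 to 105222737). The Tcl1b genes are on the plus strand and Tcl1 is on the minus strand, so Tcl1b4 and Tcl1 converge. No other gene is annotated between them and none of the 6 gene models overlaps another gene. All are annotated as protein-coding, and all 6 matched a promoter window of 300 bases, 250 before to 50 after the annotated start.

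The promoter sequences are shown because they separate the members into 5 near copies and 1 unlike gene. Each stretch below runs 5′ to 3′ on the strand of its gene. The capitals mark CACCTG and its reverse complement CAGGTG, a form of the E-box CANNTG bound by basic helix-loop-helix factors.
Tcl1, chr12:105222688-105222837, minus strand: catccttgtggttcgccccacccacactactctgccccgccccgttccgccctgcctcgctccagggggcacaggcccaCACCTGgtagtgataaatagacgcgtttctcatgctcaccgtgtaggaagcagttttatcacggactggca
Tcl1b1, chr12:105159589-105159733, plus strand: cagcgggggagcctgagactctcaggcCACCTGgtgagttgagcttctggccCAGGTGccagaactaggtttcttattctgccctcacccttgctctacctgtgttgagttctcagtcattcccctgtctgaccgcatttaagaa
Tcl1b2, chr12:105146918-105147062, plus strand: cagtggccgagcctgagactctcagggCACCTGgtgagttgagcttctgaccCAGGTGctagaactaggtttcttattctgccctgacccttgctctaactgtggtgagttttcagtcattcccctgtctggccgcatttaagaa
Tcl1b3, chr12:105190928-105191072, plus strand: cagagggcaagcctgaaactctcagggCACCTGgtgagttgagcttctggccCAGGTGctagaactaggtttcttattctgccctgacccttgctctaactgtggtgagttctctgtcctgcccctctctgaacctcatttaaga
Tcl1b4, chr12:105202307-105202444, plus strand: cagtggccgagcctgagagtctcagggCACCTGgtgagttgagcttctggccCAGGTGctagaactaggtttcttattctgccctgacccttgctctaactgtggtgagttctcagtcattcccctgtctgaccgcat
Tcl1b5, chr12:105176243-105176387, plus strand: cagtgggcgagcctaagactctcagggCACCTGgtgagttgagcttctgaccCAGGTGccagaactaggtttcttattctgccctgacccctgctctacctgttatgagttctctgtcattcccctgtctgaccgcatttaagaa

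Over the first 138 bases of these stretches, with no gap allowed, the Tcl1b genes were 87.0% to 97.1% identical in pairs. Tcl1b2 and Tcl1b4 were the closest pair, with 134 of 138 bases the same, and Tcl1b3 was the least like the others. The 5 Tcl1b windows share the run AGAACTAGGTTTCTTATTCTGCCCT, one of 2 runs of 25 bases common to all of them, and it is in 5 of the 32817 windows of full length in the RefSeq table, those of the 5 Tcl1b genes. The Tcl1 window lacks it, and its longest run in common with any Tcl1b window, on either strand, was 9 bases. In each Tcl1b gene the pair of E-boxes starts 33 and 8 bases before the shared run. The form CACCTG was chosen after the sequences were seen; searched on both strands, it is in 20.2% of all windows, and 2.88% hold at least 2 matches. The looser CANNTG, which includes CACCTG and CACGTG, was found in all 6 windows and in 72.3% of all windows. Each of 4 further motifs, searched on both strands, had no match in the 6 windows. The first of these was TATAAA, the box at which transcription of many genes is started, which is found in 13.6% of all windows. The next was CACGTG, an E-box variant that is found in 7.15% of all windows. A sequence bound by the oocyte factor NOBOX, written TAATTG, is found in 8.00% of all windows. The last was a sequence bound by factors of the OBOX family, written GGATTA, and it is found in 7.06% of all windows.

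The Tcl1b genes are paralogs, and reads from near copies can match more than 1 gene. Whether such reads were dropped, shared or assigned to one copy is not stated in any source used here. The value of any single Tcl1b gene is therefore uncertain. The sum of the 5 is unchanged by reads moved from one copy to another, but not by reads dropped or counted for each copy. The total gene counts ranged from 16606155 to 49672143 in DMSO and from 17963977 to 32931800 in IWR1.

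All 6 genes were higher in IWR1 embryos than in DMSO embryos. Together they took 0.736%, 0.743%, 0.949% and 0.343% of the counts of DMSO libraries 1 to 4, and 3.52%, 3.31%, 3.01% and 3.23% of IWR1 libraries 5 to 8. The mean was 0.693% ± 0.253 (SD, n = 4) in DMSO and 3.27% ± 0.214 (SD, n = 4) in IWR1, a ratio of 4.72 between the means. The groups did not overlap, and the lowest IWR1 library was 3.17-fold above the highest DMSO library. A share of counts is relative to the rest of the library. More copies per embryo, fewer copies of other transcripts, and fewer cells contributing other RNA cannot be told apart in pooled embryos.

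Each member passed the test by itself. In edgeR's quasi-likelihood fit over 14994 genes, with p-values adjusted by Benjamini-Hochberg over all of them, 6 of 6 rose at an adjusted p threshold of 0.05. Of all genes tested, 7297 (48.7%) passed, 3494 of them (23.3%) as rises and 3803 (25.4%) as falls. The log2 fold changes of the members lay between 1.92 and 2.63, and the median over all genes tested was 0.17. For 6 of 6 members every IWR1 share was above every DMSO share, as it was for 4236 of the genes tested (28.3%).

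Tcl1 was the most abundant member. It took 0.477%, 0.462%, 0.571% and 0.218% of the counts in DMSO libraries 1 to 4 and 1.95%, 2.01%, 1.68% and 1.80% in IWR1 libraries 5 to 8. The IWR1 libraries lay close together and all were above every DMSO library, of which library 4 was the lowest. The difference of the means was 1.43 percentage points (exact permutation test over libraries, two-sided, p = 0.0286, the smallest that 4 against 4 allow). In the edgeR fit its log2 fold change was 1.92 (SE 0.27, adjusted p = 0.000134). By raw count Tcl1 ranked 7, 5, 4 and 33 among all genes in DMSO libraries 1 to 4 and 3, 1, 2 and 3 in IWR1 libraries 5 to 8. It was thus the gene with the most counts in IWR1 library 6.

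Among the Tcl1b genes, Tcl1b1 had the highest level. It took 0.0997%, 0.103%, 0.153% and 0.0497% of counts in DMSO libraries 1 to 4 and 0.512%, 0.429%, 0.478% and 0.473% in IWR1 libraries 5 to 8. The groups did not overlap, and Tcl1b1 rose by 2.03 on the log2 scale (SE 0.30, edgeR adjusted p = 0.000181). It ranked 12 by raw count in each of the 4 IWR1 libraries and between 65 and 358 in DMSO.

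Tcl1b2 took 0.0689%, 0.0885%, 0.0728% and 0.0262% of counts in DMSO libraries 1 to 4 and 0.439%, 0.337%, 0.290% and 0.324% in IWR1 libraries 5 to 8. It was the only member whose highest DMSO library was library 2, where the other 5 were highest in library 3. It rose by 2.28 on the log2 scale (SE 0.32, edgeR adjusted p = 0.000114). Tcl1b3 took 0.0504%, 0.0467%, 0.0831% and 0.0249% in DMSO libraries 1 to 4 and 0.313%, 0.271%, 0.284% and 0.326% in IWR1 libraries 5 to 8. It rose by 2.34 (SE 0.33, edgeR adjusted p = 0.000114). For both genes every IWR1 library was above every DMSO library.

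Tcl1b4 had the largest change of the 6. It took 0.0294%, 0.0315%, 0.0539% and 0.0184% of counts in DMSO libraries 1 to 4 and 0.262%, 0.217%, 0.225% and 0.245% in IWR1 libraries 5 to 8. The lowest IWR1 library was 4.03-fold above the highest DMSO library. Tcl1b4 rose by 2.63 on the log2 scale (SE 0.32, edgeR adjusted p = 4.55e-05).

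Tcl1b5 was the least abundant member in every library. It took 0.0108%, 0.0109%, 0.0155% and 0.00572% of counts in DMSO libraries 1 to 4 and 0.0446%, 0.0495%, 0.0514% and 0.0539% in IWR1 libraries 5 to 8. The value with the fewest counts, 1801 in DMSO library 1, has a Wilson 95% interval of 0.0104% to 0.0114%, so counting error, the only error that this interval covers, is small beside the spread between libraries. Tcl1b5 rose by 2.02 on the log2 scale (SE 0.27, edgeR adjusted p = 9.38e-05).

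**Figure D1:**
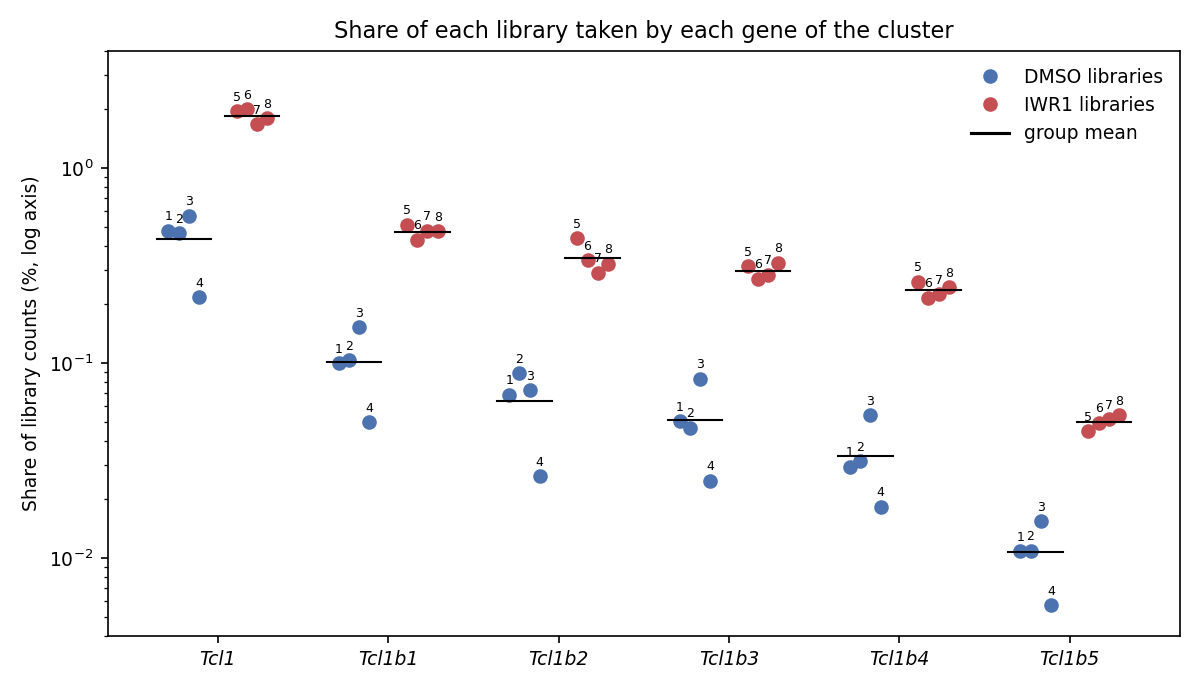
Share of each library's gene counts (percent, log axis) taken by the 6 genes; points are the 4 DMSO and 4 IWR1 libraries with their numbers and black lines are group means. For every gene the IWR1 points lie above the DMSO points, and DMSO library 4 is the lowest of all 8.

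Per length, the order of the members was nearly the same in both groups. Mean levels in DMSO were 2632 ± 918 FPKM (counts scaled to gene length and library total; SD, n = 4) for Tcl1, 988 ± 411 for Tcl1b1, 636 ± 264 for Tcl1b2, 618 ± 289 for Tcl1b3, 323 ± 144 for Tcl1b4 and 103 ± 38.4 for Tcl1b5. In IWR1 they were 11333 ± 905 FPKM (SD, n = 4) for Tcl1, 4611 ± 330 for Tcl1b1, 3444 ± 632 for Tcl1b2, 3596 ± 310 for Tcl1b3, 2301 ± 197 for Tcl1b4 and 479 ± 37.9 for Tcl1b5. Within each of the 8 libraries Tcl1 was above Tcl1b1, Tcl1b1 above Tcl1b2 and Tcl1b3, these above Tcl1b4, and Tcl1b4 above Tcl1b5. Tcl1b2 and Tcl1b3 changed places. Tcl1b2 was the higher in DMSO libraries 1 and 2 and IWR1 libraries 5 and 6, and Tcl1b3 in the other 4. The order of these 2 genes was thus not constant, and their difference was not tested.

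The spread between libraries was wider in DMSO. The highest DMSO library was 2.62-fold to 3.37-fold above the lowest for each member, and the same ratio was 1.19 to 1.51 in IWR1. DMSO libraries 3 and 4 had total counts of 49448988 and 49672143, and the summed share of the cluster was 2.77-fold higher in library 3. The cause of the spread was not tested. DMSO library 4 was the lowest of the DMSO libraries for 21 of 34 tested genes of a list of other oocyte transcripts, and for 4642 of all 14994 genes tested (31.0%). Without it the log2 fold changes of the members were smaller, 1.73 for Tcl1 and 2.46 for Tcl1b4, and 6 of 6 still passed the edgeR test. Over all genes, 3440 rose and 3446 fell in that run.

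Within the cluster, the Tcl1b genes made up a larger part of the counts in most IWR1 libraries. Tcl1 held 64.8%, 62.2%, 60.1% and 63.5% of the cluster's counts in DMSO libraries 1 to 4 and 55.4%, 60.6%, 55.8% and 55.9% in IWR1 libraries 5 to 8. IWR1 library 6 lay within the DMSO range and the other 3 below it, and the difference of the means, -5.74 percentage points, did not pass (exact permutation test, two-sided, p = 0.0571). The share of Tcl1b4 went from 4.82% ± 0.830 (SD, n = 4) in DMSO to 7.27% ± 0.477 (SD, n = 4) in IWR1, and that of Tcl1b3 from 7.29% ± 1.06 to 9.16% ± 0.821 (SD, n = 4 each). Tcl1b1 held 14.5% in both groups, with an SD of 1.14 in DMSO and 1.20 in IWR1 (n = 4 each), and Tcl1b5 held 1.56% ± 0.106 in DMSO and 1.54% ± 0.203 in IWR1 (SD, n = 4 each). Such ratios within a library do not depend on how libraries are scaled.

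**Figure D2:**
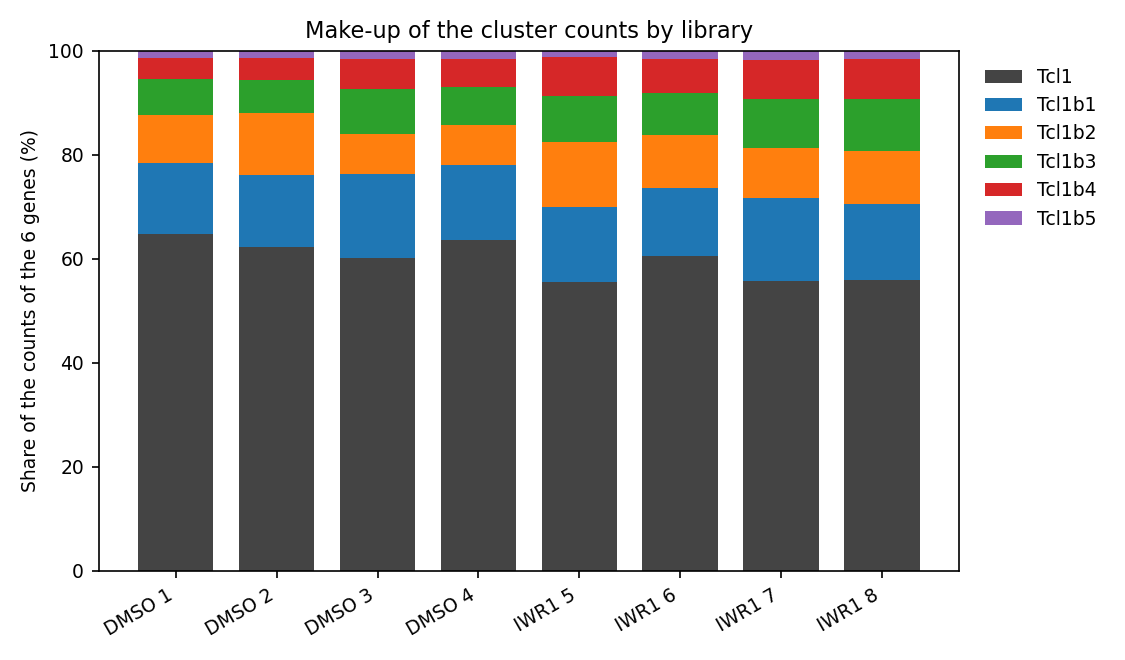
Make-up of the counts of the 6 genes in each library (stacked bars, percent of their summed counts, DMSO libraries 1 to 4 and IWR1 libraries 5 to 8). Tcl1 holds 55.4% to 60.6% in IWR1 and 60.1% to 64.8% in DMSO, and the part of Tcl1b4 is larger in IWR1.

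The ratio of Tcl1b4 to Tcl1 was the one whose libraries separated by group. On the log2 scale it was -4.02, -3.88, -3.40 and -3.57 in DMSO libraries 1 to 4 and -2.90, -3.21, -2.90 and -2.88 in IWR1 libraries 5 to 8, a difference of 0.75 between the means. All 4 IWR1 values were above all 4 DMSO values. Set against Tcl1 in the same way, 9237 of the 14993 other genes tested (61.6%) had groups that did not overlap, and 286 (1.91%) had all IWR1 values the higher. For Tcl1b1, Tcl1b2, Tcl1b3 and Tcl1b5 the values of the groups overlapped, with differences of 0.14, 0.37, 0.47 and 0.11. As reads of the Tcl1b copies may have been exchanged between them in counting, the separate ratios are uncertain. With the 5 Tcl1b genes counted as 1, the summed gene had a log2 fold change of 2.24 (SE 0.30), beside 1.92 for Tcl1 in the same fit.

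Such rises were less common among abundant genes than falls. The 6 members ranked 6, 12, 22, 19, 37 and 348 by mean FPKM over all libraries, in the order Tcl1, Tcl1b1, Tcl1b2, Tcl1b3, Tcl1b4 and Tcl1b5. Of the 1500 tested genes with the highest mean FPKM, among them all 6 members, 1218 (81.2%) passed: 411 (27.4%) rose and 807 (53.8%) fell, with a median log2 fold change of -0.66. In that set 20 genes had a larger log2 fold change than Tcl1b4, and 99 had a larger one than Tcl1.

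**Figure D3:**
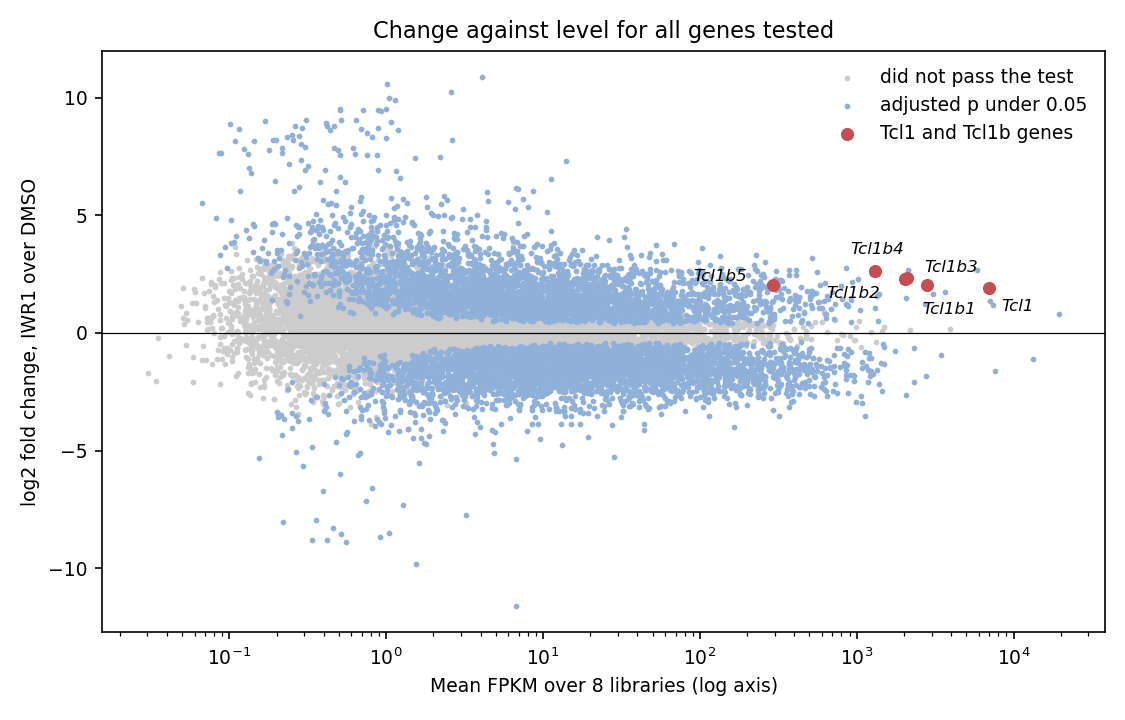
Log2 fold change of IWR1 over DMSO against mean FPKM over the 8 libraries (log axis) for the 14994 genes tested; the 6 genes of the cluster are in red. They lie at the upper right, between 1.92 and 2.63 on the log2 scale.

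Mtcp1, the other gene of the TCL1 family, is on the X chromosome (gene ID 17763, 75410442 to 75416584). It rose too, from 6.19 ± 3.38 FPKM (SD, n = 4) in DMSO to 35.2 ± 16.2 FPKM (SD, n = 4) in IWR1, a log2 fold change of 2.40 (SE 0.41, edgeR adjusted p = 0.000440). Its model lies inside that of Cmc4, so its counts are uncertain.

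Genes of the pathway in which TCL1 proteins act were found in both directions. Of 36 tested genes of a PI3K-AKT list, in which Mtcp1 was included, 6 rose and 5 fell, against 23.3% and 25.4% of all genes tested, and the median log2 fold change was 0.13. The kinase genes Akt1 and Akt2 did not pass. Akt1 had a log2 fold change of 0.39 (SE 0.19, adjusted p by edgeR 0.117) and Akt2 of 0.07 (SE 0.25, adjusted p 0.827). The call for Akt1 depended on scaling and test, as it passed with library totals alone (edgeR adjusted p = 0.0352) and by DESeq2 (adjusted p = 0.0470). Akt1 overlaps a microRNA gene and a predicted gene. In levels per length both were low beside the cluster, at 8.68 ± 1.23 FPKM for Akt1 and 5.14 ± 1.37 FPKM for Akt2 in DMSO (SD, n = 4 each).

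The other rises in that list were Pik3cd, Tsc1, Phlpp1, Gsk3a and Pik3r3. Pik3cd, a catalytic subunit gene of PI3K, had a log2 fold change of 1.41 (SE 0.19, edgeR adjusted p = 0.000102). Tsc1, of the complex that restrains the kinase mTOR, rose by 1.28 (SE 0.25, edgeR adjusted p = 0.00103). Phlpp1, which encodes a phosphatase of AKT, had no count in DMSO and 123 counts in the IWR1 libraries. With 3 counts in the whole DMSO group as the floor, IWR1 was at least 56.0-fold higher (edgeR adjusted p = 0.00203). Its level in IWR1 was low, at 0.216 ± 0.105 FPKM (SD, n = 4). Phlpp1 entered the test only through its IWR1 counts, so it could be called as a rise but not as a fall. The number of rises in the list is thus partly set by the filter. When IWR1 library 8 was left out, Phlpp1 was not tested, and the same floor gave at least 44.1-fold. Gsk3a, the paralog of Gsk3b, had a log2 fold change of 1.07 (SE 0.28) and the regulatory subunit gene Pik3r3 of 0.49 (SE 0.19). The falls included Rheb, Mdm2, Pik3cb and Gsk3b. Rheb, the small GTPase that activates mTOR, went from 391 ± 61.8 to 126 ± 7.85 FPKM (SD, n = 4 each; log2 fold change -1.83, SE 0.20, edgeR adjusted p = 2.74e-05). Mdm2, the ubiquitin ligase of p53, had a log2 fold change of -1.10 (SE 0.15), Pik3cb, another catalytic subunit gene of PI3K, -1.27 (SE 0.20), and Gsk3b, a kinase inhibited by AKT, -0.55 (SE 0.19).

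The cluster was set beside other oocyte transcripts. Of 34 tested genes of that list, 16 rose and 3 fell (Zp3, Zar1l and Dppa3), against 23.3% and 25.4% of all genes tested, with a median log2 fold change of 0.75. The list was drawn up with results of these embryos known, so its direction is no independent evidence. Sohlh1, one of the rises, had only 14 counts in the whole DMSO group and 610 in IWR1. Like Phlpp1, it passed the filter on low counts only through IWR1, so a fall could not have been called. Figla, with 55 and 341 counts, entered in the same way but did not pass the test. The rises and the median of the oocyte list are thus partly set by the filter. The 4 most abundant genes of the list were Omt2b, Dppa3, Omt2a and Btg4. Omt2a, an oocyte maturation transcript, went from 3617 ± 516 to 10635 ± 1385 FPKM (SD, n = 4 each; log2 fold change 1.37, SE 0.20, edgeR adjusted p = 0.000180). Omt2b, a near copy of Omt2a with which reads may be confused, had a log2 fold change of 0.79 (SE 0.22, edgeR adjusted p = 0.0104), while Dppa3, a maternal factor, went from 17312 ± 1789 to 9194 ± 2141 FPKM (SD, n = 4 each; log2 fold change -1.09, SE 0.22, edgeR adjusted p = 0.00155). Btg4, an adaptor of mRNA deadenylation whose model overlaps Hoatz and 2 microRNA genes, rose by 2.66 (SE 0.32, edgeR adjusted p = 4.54e-05), a change close in size to that of Tcl1b4.

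Profiles most like that of Tcl1 were found by the root mean square difference between log2 CPM over the 8 libraries. CPM here are counts scaled to library total times edgeR's TMM factor, with a prior count of 2. Each profile was centred on its own mean. The closest 5 named genes outside the cluster were Agbl3 (0.12 log2 units), Knstrn (0.12), Actg1 (0.14), Zp2 (0.15) and Hsf2bp (0.17). Knstrn, a kinetochore protein gene, went from 82.8 ± 24.2 to 394 ± 18.9 FPKM (SD, n = 4 each; log2 fold change 2.07, SE 0.24, edgeR adjusted p = 3.69e-05). Zp2, a zona pellucida protein gene, went from 23.6 ± 8.17 to 85.1 ± 11.96 FPKM (SD, n = 4 each; log2 fold change 1.67, SE 0.27, edgeR adjusted p = 0.000346). Agbl3 encodes a carboxypeptidase and Hsf2bp a protein of meiotic recombination. Actg1 encodes gamma-actin; it has pseudogenes of near-identical sequence, so its count is uncertain, and Agbl3 overlaps 2 predicted genes and Actg1 a microRNA gene.

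By the same measure the Tcl1b genes differed in how near they were to Tcl1. Tcl1b5 and Tcl1b1 were both at 0.16 log2 units and ranked 5 and 6 among all genes tested. Tcl1b2, at 0.28, ranked 121, Tcl1b3, at 0.30, ranked 160, and Tcl1b4, at 0.42, ranked 526. For the sum of the Tcl1b genes the closest were Tpgs2 (0.13), Agr3 (0.15), Cndp1 (0.17), the long non-coding gene Pvt1 (0.17) and again Knstrn (0.19). Agr3, of the protein disulphide isomerase family, went from 48.1 ± 14.9 to 265 ± 55.5 FPKM (SD, n = 4 each; log2 fold change 2.29, SE 0.28, edgeR adjusted p = 4.80e-05). Tpgs2 overlaps Fhod3 and Pvt1 overlaps Macroh2a3, so their counts are uncertain too. These are descriptions of 8 libraries, in which every gene named also differed between the groups.

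Of the 8 nearest tested genes, 4 on each side, 3 rose, 3 fell and 2 did not pass, where 23.3% of all genes tested rose and 25.4% fell. On the side of Tcl1b2 the nearest tested gene was Glrx5, of iron-sulphur cluster assembly, 106 kb away, with a log2 fold change of 0.66 (SE 0.20, edgeR adjusted p = 0.0152). Beyond it Snhg10, a small nucleolar RNA host gene that overlaps Scarna13, fell by 1.05 (SE 0.27, edgeR adjusted p = 0.00637), and Scarna13 and Syne3 did not pass, at -0.47 (SE 0.96) and 1.64 (SE 1.26) on the log2 scale. The calls for Glrx5 and Snhg10 were lost among the 2 shallowest libraries of each group alone (edgeR adjusted p = 0.156 and 0.242).

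On the side of Tcl1 the nearest tested gene was Tunar, a long non-coding RNA gene, 114 kb away. It had no count in the 4 DMSO libraries and 93, 23, 11 and 32 counts in IWR1 libraries 5 to 8. By the same floor IWR1 was at least 72.3-fold higher (edgeR adjusted p = 0.00237), and at least 36.7-fold without IWR1 library 5. Like Phlpp1, Tunar passed the filter on low counts only through IWR1, so a fall could not have been called. Among the 2 shallowest libraries of each group alone Tunar was not tested. At 0.578 ± 0.671 FPKM (SD, n = 4) in IWR1 Tunar stayed far under any gene of the cluster. Bdkrb1, a bradykinin receptor gene 381 kb away, rose from 1.70 ± 0.874 to 9.77 ± 2.95 FPKM (SD, n = 4 each; log2 fold change 2.40, SE 0.42, edgeR adjusted p = 0.000571). Atg2b, of autophagy, had a log2 fold change of -0.79 (SE 0.24, edgeR adjusted p = 0.0176; lost with library totals alone, adjusted p = 0.0603, without DMSO library 4, 0.0542, and without IWR1 libraries 6 or 8, 0.0530 and 0.0505). Gskip, whose protein binds the kinase GSK3, fell by 1.63 (SE 0.24, edgeR adjusted p = 0.000143).

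**Figure D4:**
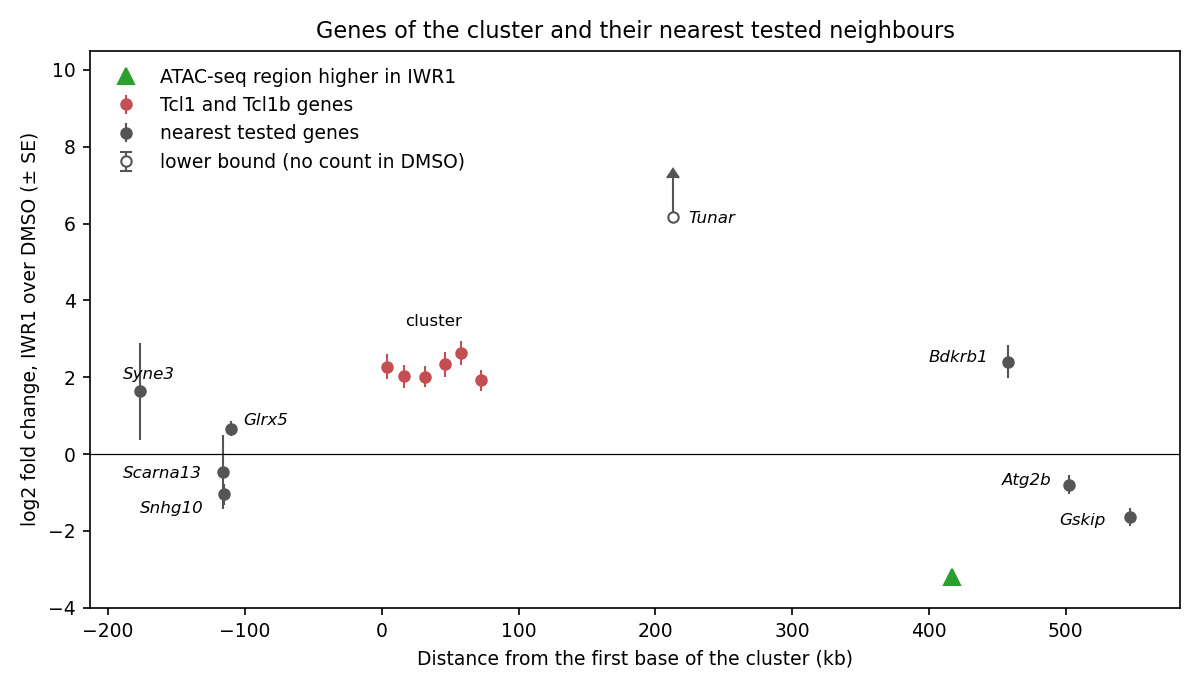
Log2 fold change (IWR1 over DMSO, points with SE) of the 6 genes of the cluster and the 4 nearest tested genes on each side, by distance in kb from the first base of the cluster. The 6 genes lie between 1.92 and 2.63, neighbours lie on both sides of 0, Tunar is drawn at its lower bound, and the triangle marks the one ATAC-seq region within 500 kb, whose height has no meaning.

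The authors' ATAC-seq lists hold 2345 regions higher and 1400 lower in IWR1, with no value per library. Neither list has a region within 100 kb of the cluster. The nearest higher region, chromosome 12 from 105563457 to 105564457 in mm10 as deposited, is 341 kb away in the gene Bdkrb2, and the nearest lower region is 538 kb away in Ak7. A gene cluster absent from these lists need not have had the same openness in both groups, as the regions tested and their depth are not known.

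Markers of other cells took small shares of the counts, with 1 lymphoid marker well detected. The lymphoid list, kept because TCL1 is also known from lymphoid cells, took 0.00303% to 0.00694% of counts in DMSO and 0.0136% to 0.0189% in IWR1. Of its 10 genes, 6 had a count in DMSO and 7 in IWR1, and 2 of 5 tested rose, Ms4a1 and Cd8a. Ms4a1, which encodes the B cell surface protein CD20, went from 22.7 ± 7.53 to 77.5 ± 12.5 FPKM (SD, n = 4 each; log2 fold change 1.60, SE 0.26, edgeR adjusted p = 0.000289) and held most of the list's counts. The pan-leukocyte gene Ptprc and the T cell gene Cd3e had no count in any library, nor had Rag2. The summed share of the list in IWR1 was below that of Tcl1b5, the least abundant gene of the cluster, in every IWR1 library (0.0446% or more). Cumulus and granulosa markers took 0.00497% to 0.00747% in DMSO and 0.00405% to 0.00534% in IWR1, with counts for 9 and 11 of 14 genes, 1 of 7 tested higher and 1 lower, and Amh, Inhba and Inhbb at 0. Nr5a2, a nuclear receptor gene that fell, held 87.7% of that list's counts in DMSO and 52.3% in IWR1. The other 13 genes of the list took 0.000560% to 0.001000% in DMSO and 0.00158% to 0.00303% in IWR1, so without Nr5a2 the IWR1 libraries were the higher. Sperm genes took at most 0.000140% in DMSO and 0.00156% in IWR1, with counts for 5 and 6 of 6 genes and 3 of 4 tested higher. Of these, Prm1 and Tnp1 had only 8 and 4 counts in the whole DMSO group. They passed the filter on low counts only through IWR1, so the rises and the median of this list are partly set by the filter. The part of these cells in the result was not tested. The median log2 fold change was 1.53 for the lymphoid, 1.00 for the cumulus and granulosa and 3.42 for the sperm genes tested, and the counts of rises and falls in these lists stand beside 23.3% and 25.4% of all genes tested. Genes of the 2-cell embryo were present, as all 10 of a list with Zscan4c, Zfp352 and Tcstv1 had counts in both groups. Of these 8 rose and 2 fell, against the same shares of all genes, with a median log2 fold change of 1.81. Their summed share was 1.36% to 1.67% in DMSO and 0.827% to 1.23% in IWR1, but Dppa3, which is also on the oocyte list, held 91.2% of it in DMSO and 72.2% in IWR1. The other 9 genes took 0.132% to 0.151% in DMSO and 0.244% to 0.401% in IWR1, the opposite direction.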

How the data were processed

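RNA-seq libraries were made with the SMART-Seq v4 kit, per the labels' protocols. Per the submitters' processing notes, which give no roles, the build was mm10 and the tools were featureCounts 1.5.0-p1, STAR 2.5.1b, DESeq2, MACS2, Bowtie2 2.2.6, Trim Galore, cutadapt 1.11 and bcl2fastq. The deposited table gives raw counts per gene, without normalization per the file headers, and gene lengths. FPKM values were computed from counts, length and total; the FPKM the authors deposited for DMSO differed by at most 2.62e-10. The deposited log2 fold changes and adjusted p-values come from the authors' DESeq2 comparison, and none is printed. The IWR1 columns are numbered 5 to 8 and the labels 1 to 4, so they were assigned to the group only, and a further 12 per-library columns stayed unused. RefSeq positions (GRCm38.p6) matched 24815 entries by gene ID.

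The test was edgeR 4.0.16 (R 4.3.3) with filterByExpr, TMM scaling and treatment as the only term; SE is the log2 fold change over the square root of F. Exact permutation tests used SciPy 1.17.1, and DESeq2 1.42.0 was an alternative. Wilson intervals have a level of 95%. Pairwise protein identity was planned and not done, as no protein table was used here.

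Summed shares of lists without their leading gene were added after the data were seen. Members and lists were chosen with earlier results of these data known. Named genes were the 6 members, the 5 closest profiles of Tcl1 and of the Tcl1b sum, the 4 listed PI3K-AKT genes per direction with the smallest adjusted p plus Akt1 and Akt2, the 4 oocyte genes with the highest FPKM and 4 neighbours a side; some genes that the rule names are not reported here. Gsk3b, Gsk3a, Pik3r3, Zp3, Zar1l, Sohlh1, Figla, Ms4a1, Cd8a, Prm1, Tnp1 and the marker genes named at 0 were chosen after their values were seen.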

Additional observations from a re-analysis of the deposited data

Results flagged for a closer look

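In 7 of 90 groups of 4 libraries examined, 1 library stood apart from the other 3 by Dixon's criterion, which chance alone meets in about 1 group of 20. Within IWR1, library 6 had 60.6% of the cluster's counts in Tcl1, against 55.4% to 55.9% in the others. The same library had 6.56% in Tcl1b4, against 7.44% to 7.59%. Omt2b was at 20578 FPKM in IWR1 library 6, against 27324 to 28024. DMSO library 4, the lowest for every gene of the cluster, stood apart for Zp2 at 11.5 FPKM, against 26.8 to 29.3, and for Hsf2bp at 5.84 FPKM, against 16.4 to 17.6. Tsc1 was at 4.55 FPKM in IWR1 library 7, against 8.26 to 8.998, and Tunar at 1.58 FPKM in IWR1 library 5, against 0.164 to 0.356.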

How the results depend on the processing

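All 6 genes kept their direction and their call in every alternative run with a p: DESeq2, 3 other scalings, 2 other filters, each library left out in turn, and the 2 shallowest or 2 deepest libraries of each group alone. Log2 fold changes then ranged from 1.73 to 2.18 for Tcl1 and from 2.33 to 3.07 for Tcl1b4, and the largest adjusted p of any member was 0.0441, for Tcl1b1 among the deepest libraries (edgeR). Without 1 library the ranges were 1.83 to 2.40 for Tcl1b1, 2.04 to 2.43 for Tcl1b2, 2.14 to 2.79 for Tcl1b3 and 1.84 to 2.35 for Tcl1b5. Over all genes, 1906 rose and 2088 fell among the shallowest libraries alone and 2063 rose among the deepest. With the 10 most abundant genes out of the denominator, the summed share of the cluster differed by 3.01 percentage points in place of 2.57; by construction the denominator is smaller. Without 1 library the difference for Tcl1 lay between 1.36 and 1.49 percentage points, at an exact permutation p of 0.0571, the smallest that 3 against 4 allow. Within 500 kb in place of 100 kb, 1 higher ATAC-seq region was near the cluster. The log2 fold change of Akt2 lay between -0.0476 and 0.177 without 1 library (below 0 without DMSO library 3, and -0.0173 without IWR1 library 7) and was -0.00605 among the deepest libraries, and that of Scarna13 to 0.27 among the shallowest; the cause was not tested. Beside the losses given above, the calls for Tsc1 and Dppa3 among the shallowest libraries and for Omt2b and Cndp1 among the deepest were lost, as was that for Atg2b in both. No paired analysis was possible because the IWR1 columns do not carry the replicate numbers of the labels.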
